A study of Homo sapiens with 9 samples.

Results

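The transcripts of 34 genes that load amino acids onto tRNAs or belong to the ATF4 amino acid response were followed in human fibroblasts during senescence driven by an oncogenic RAS. The members were picked by symbol from the 13745 genes of the deposited table, and all 34 were found there and passed the filter on low values. They comprise 20 cytosolic aminoacyl-tRNA synthetase genes, 7 genes of serine, glycine and folate metabolism, 3 of asparagine and proline synthesis, and ATF4 with the stress factors DDIT3, TRIB3 and CHAC1. All libraries were polyA RNA-seq of BJ cells, human fibroblasts immortalised with hTERT, the catalytic subunit of telomerase. In 4 libraries RASG12V was activated after knockdown of the long non-coding RNA LncRNA-OIS1, each with its own hairpin (32-9, 32-2, 32-3 and 32-8). RASG12V was activated after knockdown of p53 in 1 library and of BRD7, a bromodomain protein, in 1 library. The senescent group had RASG12V activated with the non-targeting hairpins 500 and 507, in 1 library each. The control was 1 library with hairpin 500, which the design text calls untreated, while its label gives 14 days of 4-OHT as for the other 8. The sources used here do not say whether the libraries of a group came from separate cultures. The p-values thus reflect how far these libraries spread, which may be technical. Libraries of a replicated group carried different hairpins, so this spread also holds any difference between hairpins.

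Each aminoacyl-tRNA synthetase attaches its amino acid to the matching tRNA. When charged tRNA runs short, the kinase GCN2, encoded by EIF2AK4, phosphorylates the initiation factor eIF2, which lowers protein synthesis in general while the ATF4 message is translated more. ATF4 then binds C/EBP-ATF response elements and induces genes for amino acid synthesis, uptake and tRNA charging. Its level is set largely by translation, so the ATF4 transcript does not measure the ATF4 protein.

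Promoters were read from RefSeq for 27 of the 34 genes, from 250 bases before to 50 bases after the transcript start. The core of the C/EBP-ATF response element, TGATGNAA, was searched on both strands and stood in 9 of the 27 promoters (33.3%). It stood in 178 of 10401 promoters of the genes in the table (1.71%) and in 1003 of 27305 promoters in all (3.67%). The 9 sites are shown because they are a sequence feature that part of these genes share. The letters were not used to pick the genes. Part of the genes were picked as members of the ATF4 response, which acts through such elements. The higher share is therefore not independent of their choice. Each is given 5′ to 3′ on the strand that reads TGATG, with the core in capitals within a window of 30 bases.
AARS: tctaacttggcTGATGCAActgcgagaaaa
CARS: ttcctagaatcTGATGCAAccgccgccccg
IARS: gcgcacggaggTGATGCAAcgcgctgaaaa
MARS: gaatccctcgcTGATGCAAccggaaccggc
NARS: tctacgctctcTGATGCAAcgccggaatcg
TARS: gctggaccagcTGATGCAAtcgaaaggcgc
MTHFD1L: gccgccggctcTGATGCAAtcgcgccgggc
ASNS: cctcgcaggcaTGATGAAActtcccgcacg
CHAC1: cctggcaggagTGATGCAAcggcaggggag
The core was TGATGCAA in 8 windows and TGATGAAA in ASNS. On build GRCh38.p14 the windows of the synthetase genes lie at chr16:70289675-70289704 on the plus strand (AARS), chr11:3057407-3057436 plus (CARS), chr9:92293692-92293721 plus (IARS), chr12:57488053-57488082 minus (MARS), chr18:57621804-57621833 minus (NARS) and chr5:33440956-33440985 minus (TARS). Those of the other members lie at chr6:150866346-150866375 on the plus strand (MTHFD1L), chr7:97872458-97872487 minus (ASNS) and chr15:40953251-40953280 minus (CHAC1). In AARS, the alanyl-tRNA synthetase gene, the match begins 187 bases before the transcript start. The 250 bases upstream of that start, chr16:70289507-70289756 on the minus strand, show it on the opposite strand, as TTGCATCA in capitals.
AARS upstream: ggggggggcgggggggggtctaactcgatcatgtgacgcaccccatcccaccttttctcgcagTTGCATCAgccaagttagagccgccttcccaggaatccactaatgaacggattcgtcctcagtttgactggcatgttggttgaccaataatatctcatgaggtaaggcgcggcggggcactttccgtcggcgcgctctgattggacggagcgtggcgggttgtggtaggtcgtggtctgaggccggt
The E-box CACGTG, a palindrome that overlaps none of these matches, stood in 4 of the 27 promoters (14.8%), those of IARS, MTHFD1L, ALDH18A1 and ATF4. It stood in 9.99% of the promoters of the table and 7.43% of all. A match describes these letters and does not show that a factor binds there.

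Each value below is a normalised read count deposited by the authors. After their normalisation all libraries share 1 set of values, with a median of 340.1 and a floor of 20, which hides the sequencing depth and leaves counting error without an estimate. Levels can be compared between libraries but not between genes, since the values are not per length. A gene was called where limma's moderated test on log2 values gave an adjusted p under 0.05 over 12481 genes. In bulk RNA, fewer cells of a type and less RNA per cell cannot be told apart. BRD7 had 94.6 in its knockdown library against 628.7 and 536.6 in the senescent libraries. LncRNA-OIS1 was not analysed here. All 10 fibroblast markers looked for were in the table, with a summed level of 99935.3 to 166420.0 in the 8 RAS libraries and 366384.8 in the control. Of the epithelial, leukocyte and endothelial markers, 3, 2 and 1 of 6 each were in the table, with summed levels of 801.4 to 3686.7, 45.1 to 196.5 and 22.2 to 266.9 over the 9 libraries. Within these, the leukocyte marker PTPRC was at the floor in 8 libraries and at 156.6 in the control. Hairpin 32-9 and the control stood apart: 300 and 490 genes were over 2-fold above all other libraries there, against 27 or fewer in each of the other 7. For 133 of the 300 genes the other 8 libraries were at the floor.

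The members differed widely in how far they varied among the 9 libraries. PSAT1, which makes phosphoserine, had a highest value 17.5 times its lowest, and PHGDH, the entry enzyme of serine synthesis, 9.49 times. ASNS, asparagine synthetase, followed with 7.06 and SHMT1, a serine hydroxymethyltransferase, with 6.39. Among the synthetases this ratio ran between 1.31 for RARS and 4.55 for WARS, and AARS had 3.64. The control held the highest value of 16 members, hairpin 32-9 of 10 and the p53 knockdown library of 4. Among all genes tested, the control held the highest value of 23.1%, hairpin 32-9 of 17.4% and the p53 knockdown library of 17.2%. For 15 members (44.1%) these were the 3 highest libraries, a pattern found in 4.15% of the genes tested and looked for after the values had been seen. The 15 were AARS, EPRS, GARS, LARS, MARS, YARS, PHGDH, PSAT1, PSPH, SHMT2, MTHFD2, MTHFD1L, ASNS, ATF4 and TRIB3. The same held for 8 of 20 other ATF4 target and partner genes and for 1 of 17 mitochondrial synthetase genes.

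**Figure D1:**
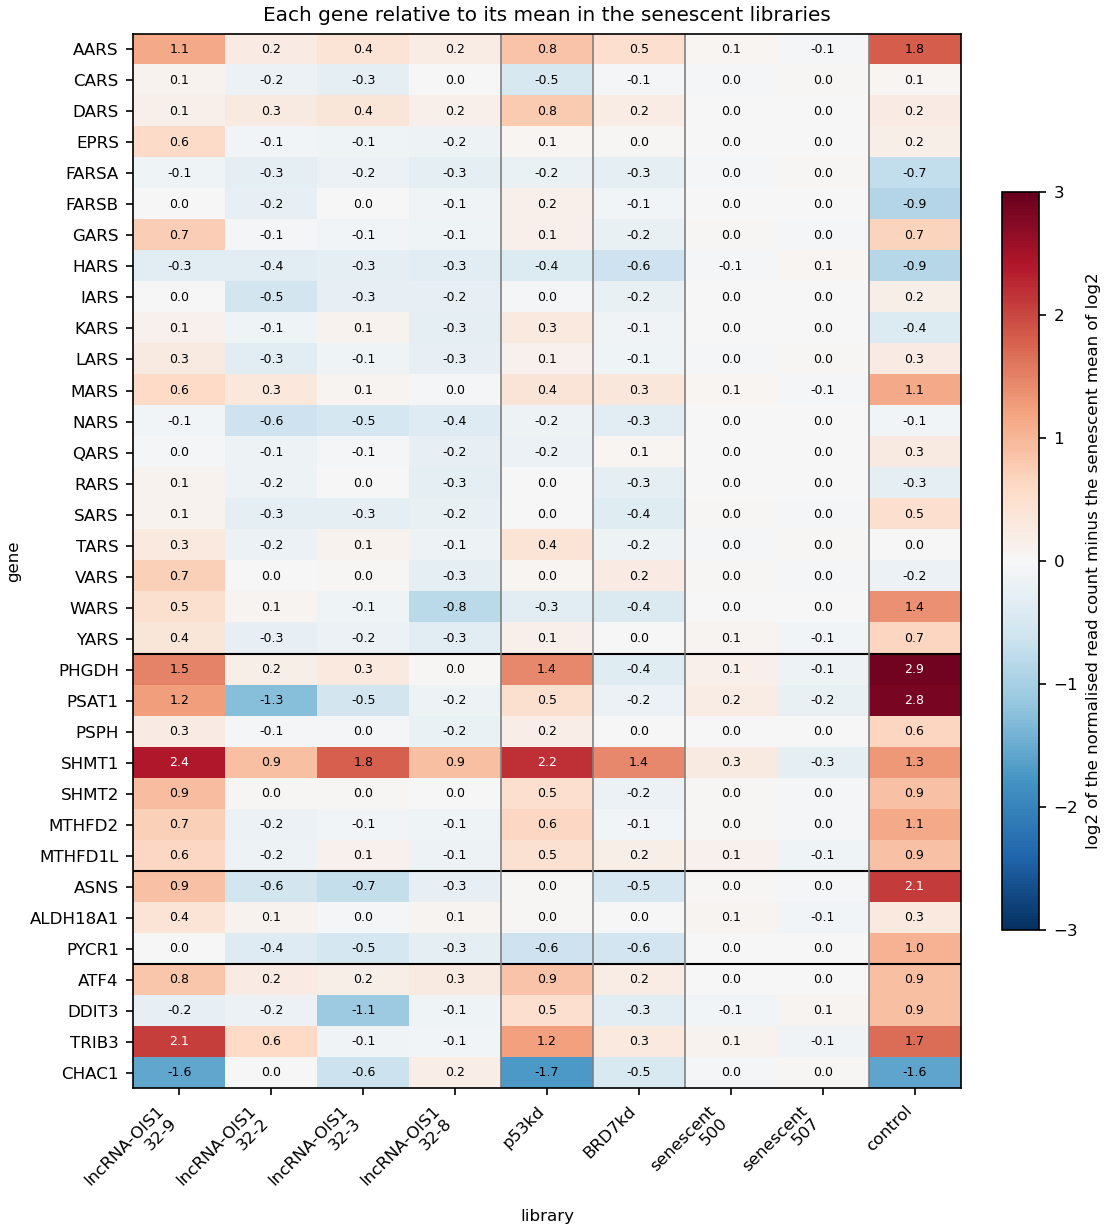
Heat map of the 34 genes (rows, grouped by role) in the 9 libraries (columns), coloured and labelled by log2 of the normalised read count minus the mean log2 of the senescent libraries. Warm colours gather in the columns of hairpin 32-9, p53 knockdown and the control, where 25, 22 and 25 of the 34 genes were above both senescent libraries. Of all 12481 genes tested, 5431, 5411 and 5336 were above both there. CHAC1, HARS, FARSA and NARS run the other way, below both senescent libraries in each of these columns.

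Senescent cells were compared with control cells to see what RAS activation did to these genes. Of the 34 members 26 had lower mean log2 values in the senescent libraries and 25 had both senescent libraries below the control, as did 42.8% of all genes tested. The median log2 change was −0.57 over the members and 0.03 over all genes. Limma called 7 members, 3 higher and 4 lower, against 15% of all genes called (7.95% higher and 7.1% lower). By count of calls the members were thus near the background.

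The serine, glycine and folate enzymes had lower senescent means in 7 of 7 cases, with a median log2 change of −1.13 and 1 call. PHGDH had 357.1 and 292.0 in the senescent libraries, against 2391.3 in the control. It was 7.41-fold lower (log2 −2.89, SE 0.61, limma adjusted p = 0.0353). PSAT1 had 558.7 and 414.7 in the senescent libraries and 3454.9 in the control, a difference of the same size that was not called (log2 −2.84, SE 0.97, adjusted p = 0.103). MTHFD2, a mitochondrial folate enzyme, had 1208.2 and 1141.2 against 2577.6 (adjusted p = 0.105), and its partner MTHFD1L 588.9 and 498.3 against 1002.0 (adjusted p = 0.145). SHMT2, which makes glycine from serine in mitochondria, had 1781.6 and 1674.6 against 3186.0 (adjusted p = 0.198). The cytosolic form, SHMT1, had 55.9 and 37.9 against 113.3 (adjusted p = 0.252), and PSPH, the last enzyme of serine synthesis, 383.7 and 379.0 against 592.7 (adjusted p = 0.0927). For all 7 genes the senescent libraries lay below the control, with no overlap.

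ASNS had 492.0 and 464.3 in the senescent libraries and 2048.0 in the control (log2 −2.10, SE 0.65, adjusted p = 0.0836). PYCR1, the last enzyme of proline synthesis in mitochondria, had 887.6 and 892.1 against 1824.1 and fell (log2 −1.04, SE 0.22, adjusted p = 0.035). ALDH18A1, which acts before it in that pathway, had 1718.9 and 1540.7 against 2006.6 (adjusted p = 0.352).

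ATF4 itself had 1937.0 and 1966.8 in the senescent libraries and 3676.6 in the control, 1.88-fold lower and not called (log2 −0.91, SE 0.29, adjusted p = 0.0837). TRIB3, a pseudokinase induced by ATF4, had 274.7 and 240.6 against 818.3 (adjusted p = 0.262). DDIT3, the stress factor CHOP, had 188.7 and 212.0 against 375.6 (adjusted p = 0.206). CHAC1, an enzyme that breaks down glutathione, stood the other way round, at 2195.7 and 2332.6 in the senescent libraries and 750.8 in the control (log2 1.59, SE 0.72, adjusted p = 0.186). The senescent libraries held the 2 lowest ATF4 values of the 9 libraries, and CHAC1 was 3.01-fold above the control by log2 means.

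The 20 synthetases did not share a direction: 13 had lower and 7 higher senescent means, with a median log2 change of −0.18. AARS had 1357.4 and 1257.8 in the senescent libraries and 4581.8 in the control, 3.51-fold lower (log2 −1.81, SE 0.40, adjusted p = 0.0388). MARS, the methionyl-tRNA synthetase gene, had 1871.2 and 1722.8 against 3973.2 (log2 −1.15, SE 0.27, adjusted p = 0.0453). WARS, for tryptophan, had 2276.4 and 2230.8 against 5810.1 and was not called (log2 −1.37, SE 0.49, adjusted p = 0.117). FARSA and FARSB, which encode the subunits of the phenylalanyl-tRNA synthetase, both rose. FARSA had 1371.3 and 1456.4 against 846.8 (log2 0.74, SE 0.11, adjusted p = 0.0171), and FARSB 2145.7 and 2088.3 against 1155.8 (log2 0.87, SE 0.14, adjusted p = 0.0176). HARS, for histidine, rose to 2025.7 and 2222.0, against 1166.3 in the control (log2 0.86, SE 0.10, adjusted p = 0.00875). The other 14 had log2 changes of −0.67 (GARS, for glycine) to 0.40 (KARS, for lysine), and none was called.

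The 9 genes with a TGATGNAA site did not move as a block in this comparison. Their log2 changes were −2.10 for ASNS, −1.81 for AARS, −1.15 for MARS, −0.89 for MTHFD1L, −0.17 for IARS, −0.06 for CARS, −0.01 for TARS, 0.08 for NARS and 1.59 for CHAC1. The members whose promoters of the same length were read and hold no such letters were as varied, between −2.89 for PHGDH and 0.87 for FARSB.

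Hairpin 32-9 bears on all these calls through the shared spread. It is no part of the comparison, so the log2 changes cannot move, yet without it 19 members were called, 4 higher and 15 lower, with 29.7% of all genes called. ATF4 (adjusted p = 0.00389), ASNS (0.00847), PSAT1 (0.0251), SHMT2 (0.00394), MTHFD2 (0.00317), TRIB3 (0.0342) and, as a rise, CHAC1 (0.0437) were among them. The count was 0 with the senescent library of hairpin 500 (1.1% of all genes called) or that of hairpin 507 (0.994%) left out. It was 3 without hairpin 32-2 (10.4%) and 4 without hairpin 32-8 (11.7%).

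Genes around the members were read from lists of the same pathway. Of 10 amino acid transporters 5 fell and 0 rose in the senescent libraries, beside 7.1% and 7.95% of all genes. Their median log2 change was −0.97. SLC1A4, a carrier of alanine and serine, fell most, to 49.6 and 44.7, against 998.7 in the control (log2 −4.41, adjusted p = 0.00538). SLC6A9, a glycine carrier, had 55.9 and 55.8 against 626.4 (log2 −3.49, adjusted p = 0.0163). SLC7A5, the leucine carrier, had 1512.9 and 1483.0 against 6019.1 (log2 −2.01, adjusted p = 0.0164), while its partner chain SLC3A2 had 2176.2 and 2055.1 against 3103.7 (adjusted p = 0.115). SLC7A11, the cystine importer, had 6464.4 and 6008.7 against 4341.7 (adjusted p = 0.573).

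Of 20 other ATF4 target and partner genes 4 fell and 0 rose, with a median of −0.80. Of all genes 7.1% were called lower and 7.95% higher. NUPR1 and ADM2 sat at the floor in senescent cells, against 605.2 and 226.4 in the control, at least 30.3-fold and 11.3-fold lower. ADM2 was at the floor in every library but the control and passed the filter only through it, so its call is no evidence of a fall. JDP2, a bZIP factor, had 70.8 and 59.7 against 1010.0 (log2 −3.96, adjusted p = 0.00904). ATF3, a stress-induced partner of ATF4, had 44.8 and 57.7 in senescent cells against the floor of 20 (adjusted p = 0.105). DDIT4, an inhibitor of mTORC1 signalling, had 37.8 and 58.8 against 547.4 (adjusted p = 0.0608), and SESN2, a leucine sensor, 358.0 and 376.4 against 448.8 (adjusted p = 0.766).

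Mitochondrial synthetase genes had a median log2 change of 0.33. Of 17, MARS2 (log2 2.12, adjusted p = 0.0313) and FARS2 (log2 1.36, adjusted p = 0.0173) rose and RARS2 fell (log2 −0.54, adjusted p = 0.0251), beside 15% of all genes called. MARS2 had 218.0 and 228.6 in the senescent libraries and 51.4 in the control, while its cytosolic counterpart MARS fell. Of 5 genes for scaffold proteins and related factors, EEF1E1, a subunit of the multisynthetase complex, rose (log2 1.38, adjusted p = 0.0203). XPOT, the exporter of tRNA from the nucleus, had 2023.6 and 1960.2 against 4701.9 (adjusted p = 0.115). Among other amino acid and folate enzymes GCSH (log2 1.39) and MTHFD2L (log2 1.12) rose, and TYMS (log2 −1.40) fell. None of 7 genes for eIF2 kinases and phosphatase subunits was called by limma, and 2 had an unadjusted p under 0.05. EIF2AK4 had 3908.3 and 3768.8 against 2677.2 in the control (adjusted p = 0.0968), and PPP1R15A, which helps to dephosphorylate eIF2, 1820.2 and 1892.4 against 1383.6 (adjusted p = 0.162).

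**Figure D2:**
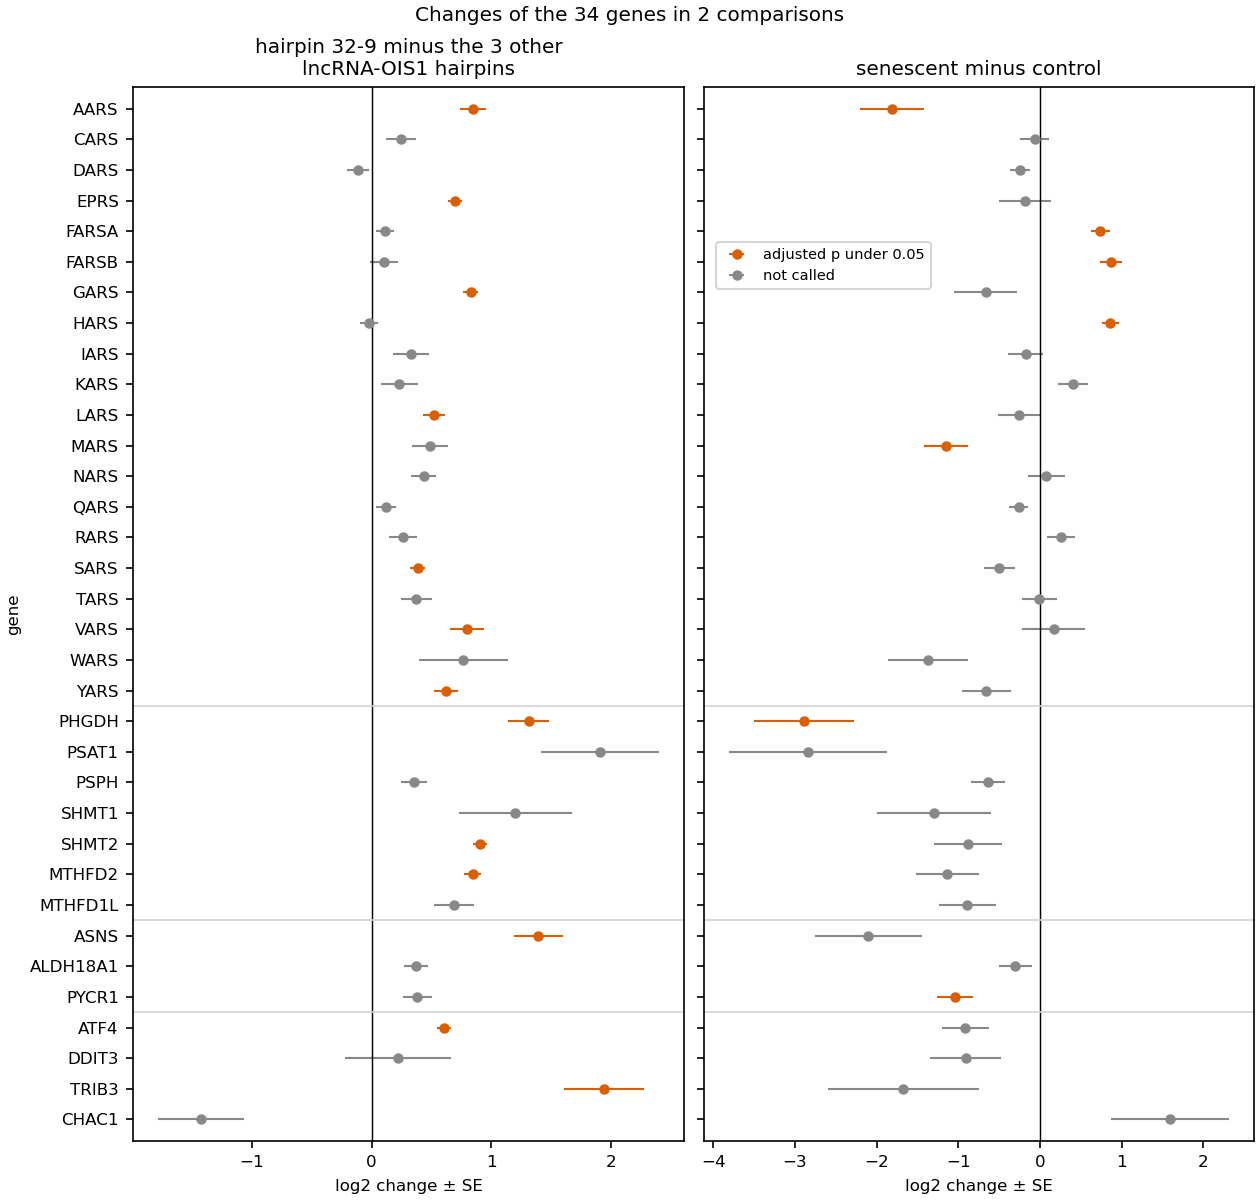
Log2 change ± SE of each of the 34 genes for hairpin 32-9 minus the 3 other lncRNA-OIS1 hairpins (left) and senescent minus control (right), with genes called at an adjusted p under 0.05 in orange and the others in grey. On the left 31 of 34 genes lie above 0 and on the right 26 lie below it, while CHAC1 and HARS stand on the opposite side in each.

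The 4 libraries with LncRNA-OIS1 knockdown were set against the 2 senescent ones to see what the knockdown altered under RAS. No member was called, as no gene of the 12481 was (0%). At an unadjusted p under 0.05, limma gave 5 members and 2805 genes (22.5% of all), and the median log2 change of the members was −0.06. With hairpin 32-9 left out, again no member was called, beside 1.31% of all genes. HARS had the lowest adjusted p among the members, with 1666.6, 1664.3, 1731.1 and 1686.9 with hairpins 32-9, 32-2, 32-3 and 32-8 against 2025.7 and 2222.0 in the senescent libraries (log2 −0.33, SE 0.07, adjusted p = 0.0881). Its 4 values lay close together and below both senescent ones.

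The 4 hairpins did not behave alike. ATF4 had 3454.9 with hairpin 32-9 and 2300.0, 2187.9 and 2335.3 with 32-2, 32-3 and 32-8, against 1937.0 and 1966.8 in the senescent libraries. PHGDH had 901.1 with hairpin 32-9 and 365.6, 398.0 and 329.1 with the others, against 357.1 and 292.0. With hairpins 32-2, 32-3 and 32-8, 15 members (44.1%) lay below both senescent libraries in all 3, as did 27.9% of all genes. Among them were ASNS, at 324.8, 290.1 and 399.9 against 492.0 and 464.3, NARS, at 2776.0, 3002.7 and 3280.7 against 4252.6 and 4336.2, and PYCR1, at 684.6, 612.8 and 739.1 against 887.6 and 892.1. None of these differences was called in the fit.

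Hairpin 32-9 was set apart after its values had been seen. Its contrast with the other hairpins therefore describes 1 library, and its calls are no independent evidence of an effect. Of the 34 members 29 (85.3%) were higher with hairpin 32-9 than with each of the 3 others, as were 36.3% of all genes. Limma called 13 members higher and 0 lower, beside 13.8% of all genes called and 6.38% called higher. The median log2 difference was 0.46 over the members and 0.01 over all genes. The exceptions among the 34 were DARS, FARSB, HARS, DDIT3 and CHAC1.

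Every serine, glycine and folate gene was higher with hairpin 32-9 than with the others, with a median log2 difference of 0.90 and 3 of 7 called. SHMT2 had 3306.6 with hairpin 32-9 and 1781.6, 1775.1 and 1751.4 with the others (log2 0.90, SE 0.06, adjusted p = 0.00345). MTHFD2 had 1926.3 against 1039.7, 1107.3 and 1076.7 (log2 0.84, SE 0.07, adjusted p = 0.00667). For PHGDH the log2 difference was 1.31 (SE 0.17, adjusted p = 0.0199). The 3 other hairpins were tightly grouped in each of these genes, and close to the senescent libraries. PSAT1 had 1140.1 against 197.3, 330.6 and 433.0, where the other hairpins themselves were spread (log2 1.90, SE 0.49, adjusted p = 0.0798).

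ATF4 was 1.52-fold higher with hairpin 32-9 than the mean of the others (log2 0.60, SE 0.06, adjusted p = 0.0109). TRIB3 had 1089.6 against 390.8, 240.9 and 244.1 (log2 1.94, SE 0.33, adjusted p = 0.0354), and ASNS 879.1 against 324.8, 290.1 and 399.9 (log2 1.39, SE 0.20, adjusted p = 0.0249). CHAC1 again stood the other way, at 764.8 against 2276.4, 1444.9 and 2611.2, and was not called (log2 −1.42, SE 0.36, adjusted p = 0.0764). DDIT3 did not separate, with 168.2 against 176.3, 93.9 and 182.7. The stress factors thus gave 3 different patterns.

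Among the synthetases 7 of 20 were called, all higher. GARS had 5854.9 with hairpin 32-9 and 3374.1, 3313.7 and 3214.2 with the others (log2 0.83, SE 0.06, adjusted p = 0.00538). EPRS, for glutamate and proline, had 6480.9 against 4113.1, 3977.1 and 3928.0 (log2 0.69, SE 0.06, adjusted p = 0.00655). AARS had 2888.1 against 1551.6, 1749.7 and 1525.4 (log2 0.85, SE 0.11, adjusted p = 0.0181). VARS, YARS, LARS and SARS, for valine, tyrosine, leucine and serine, had log2 differences of 0.79, 0.62, 0.52 and 0.38. HARS and DARS, for histidine and aspartate, had −0.02 and −0.12 and were not called. Against the senescent libraries VARS, YARS, LARS and SARS had smaller log2 differences of 0.71, 0.36, 0.28 and 0.11. Of these only VARS was called there.

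Against the senescent libraries, 10 members were higher with hairpin 32-9 and 1, HARS, was lower, beside 21.6% of all genes called and 9.99% called higher. ATF4 was 1.77-fold, PHGDH 2.79-fold and AARS 2.21-fold higher. SHMT1 had 242.0 against 55.9 and 37.9 (log2 2.39, adjusted p = 0.0404), and was above both senescent libraries in the other 6 libraries as well, the control included. These fits leave 3 residual degrees of freedom. With the senescent library of hairpin 500 or of hairpin 507 left out, 4 members were called against the other hairpins, beside 4.17% of all genes in each case. Against the senescent libraries 1 was then called, beside 3.13% or 3.16%. Without hairpin 32-2, 6 were called against the other hairpins, beside 10.2%.

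Neighbouring genes gave a mixed picture for hairpin 32-9. CBS, which starts the route from homocysteine to cysteine, had 1232.9 against 312.7, 250.8 and 255.0 with the other hairpins (log2 2.18, adjusted p = 0.0131). VEGFA had 1263.7 against 351.8, 370.0 and 370.8 (log2 1.80, adjusted p = 0.00188). NUPR1 had 105.1 and was at the floor with the other hairpins, at least 5.25-fold higher. STC2, of the same list of ATF4 targets, was lower, at 643 against a mean of 7144 (SD 3910) with the others (log2 −3.31). GDF15, also of that list, had 144.6 against a mean of 366 (log2 −1.20). Neither STC2 nor GDF15 was called. XPOT had 3789.6 against 1894.4, 1982.1 and 1934.9 (log2 0.97, adjusted p = 0.00231). SLC7A11 fell, at 1806.8 against 4221.8, 3532.4 and 4847.3 (log2 −1.21, adjusted p = 0.0306). In all, 4 of 20 other ATF4 targets rose and 0 fell, and among 10 transporters SLC7A11 alone was called. Of 17 mitochondrial synthetases EARS2, MARS2 and PARS2 were higher than with the other hairpins (log2 0.75, 0.86 and 0.81). MARS2, at 223.3, did not differ from its senescent mean of 223.3. PARS2, at 49.6, lay close to its senescent mean of 45.85, and near the floor with the other hairpins (mean 28.4). EARS2 was also above its senescent mean (log2 0.49). Among eIF2 regulators PPP1R15B rose (log2 0.42) and EIF2AK2, the kinase PKR, fell (log2 −0.52). TARSL2, a relative of TARS, fell (log2 −0.58) and GLUL, glutamine synthetase, rose (log2 0.78). The summed level of the fibroblast markers with hairpin 32-9, 154527.7, lay within the range of the other RAS libraries, while 2 of the 10 were called lower. Of these S100A4 had 6829.0 with hairpin 32-9 against 12051.4 to 13466.6 with the others, and LUM 470.0 against 941.8 to 1226.2. Against the senescent libraries S100A4 was called lower too, while DCN, at 281.3 against 71.7 and 68.2 (log2 2.01, adjusted p = 0.0393), and FAP, at 247.8 against 32.9 and 55.3 (log2 2.54, adjusted p = 0.0499), were called higher. The summed level of the epithelial markers was lowest with 32-9. KRT19, an epithelial marker, had 40.7 against the floor in the other 8 libraries. It passed the filter of 40 only through hairpin 32-9, so its calls as higher in both comparisons are no evidence of a change. CD14, a leukocyte marker, was called lower in both, at 25.1 against 77.6, 75.0 and 54.2 with the other hairpins (log2 −1.44, adjusted p = 0.0421) and 143.9 and 115.2 in the senescent libraries (log2 −2.36, adjusted p = 0.0142). Whether these markers have a part in the result was not tested.

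**Figure D3:**
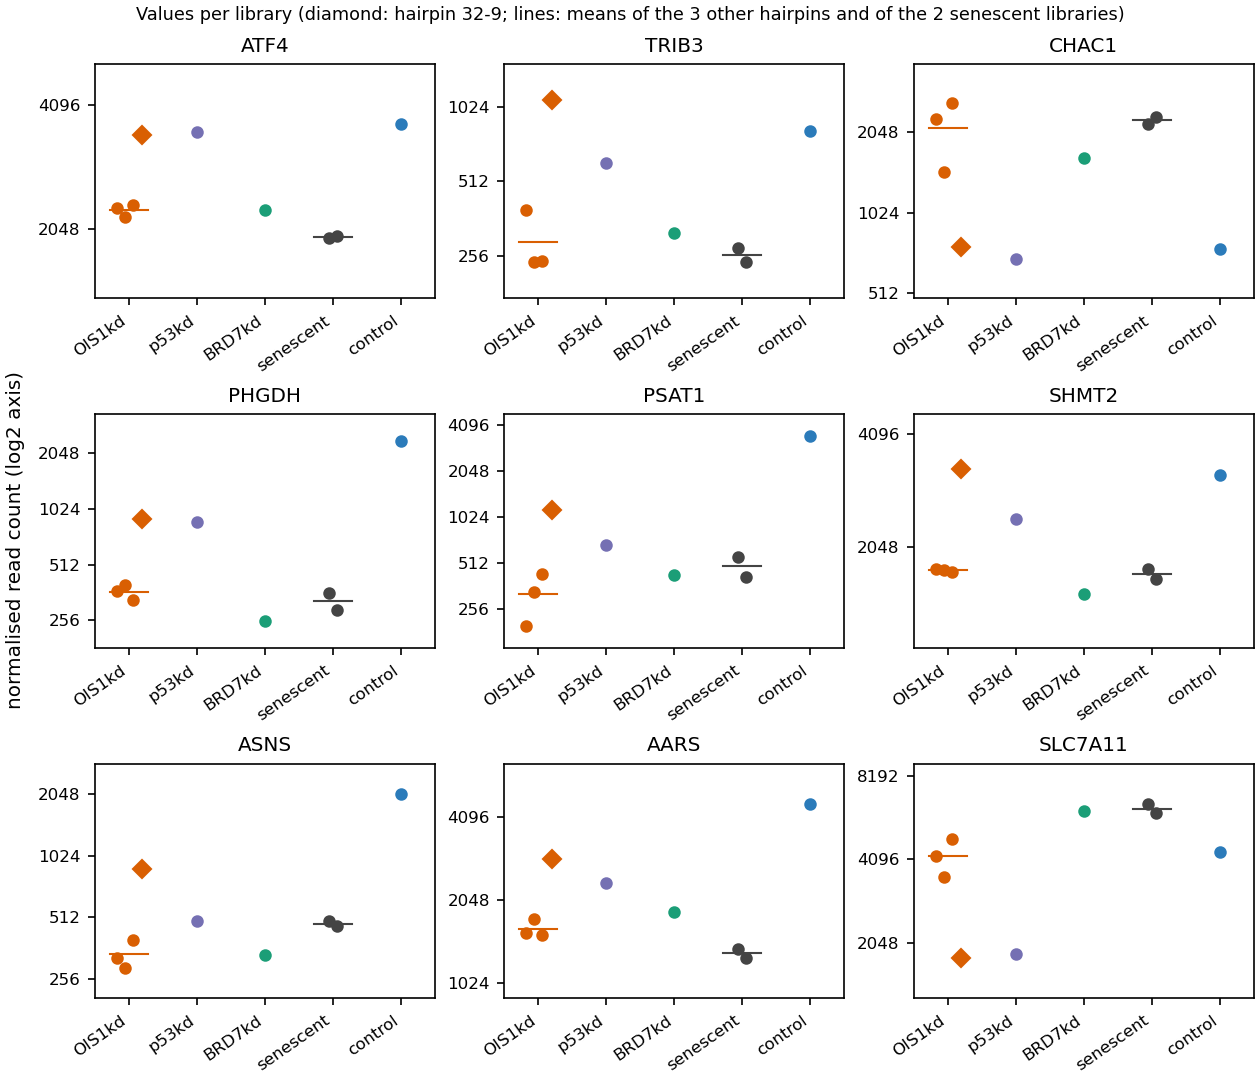
Normalised read counts per library (log2 axis) for 8 of the 34 genes and SLC7A11, with the LncRNA-OIS1 knockdown (OIS1kd), p53 knockdown (p53kd), BRD7 knockdown (BRD7kd), senescent and control libraries from left to right. The diamond is hairpin 32-9, and lines are means of the 3 other hairpins and of the 2 senescent libraries. The diamond lies near the p53 knockdown library for ATF4 (3454.9 and 3523.0), PHGDH (901.1 and 874.0), CHAC1 (764.8 and 686.6) and SLC7A11 (1806.8 and 1855.6). It lies above that library for TRIB3 (1090 and 606), PSAT1 (1140 and 669.9) and ASNS (879.1 and 492.7). The same holds for SHMT2 (3307 and 2431) and AARS (2888 and 2353). The control also lies near the diamond for ATF4 (3677) and CHAC1 (750.8).

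Knockdown of p53 was set against the senescent libraries with 1 library and no replicate of its own. Of the members 23 had higher log2 values than the senescent mean, 22 (64.7%) lay above both senescent libraries, as did 43.4% of all genes, and the median log2 change was 0.14. Limma called 1 member, beside 3.84% of all genes. DARS had 2368.1 with p53 knockdown against 1358.2 and 1379.7 in the senescent libraries (log2 0.79, SE 0.12, adjusted p = 0.0467). DARS encodes the aspartyl-tRNA synthetase of the cytosol, and its value with p53 knockdown was the highest of the 9 libraries.

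ATF4 had 3523.0 with p53 knockdown against 1937.0 and 1966.8 (log2 0.85, SE 0.29, adjusted p = 0.134). PHGDH had 874.0 against 357.1 and 292.0 (log2 1.44, SE 0.61, adjusted p = 0.209), and CHAC1 686.6 against 2195.7 and 2332.6 (log2 −1.72, SE 0.72, adjusted p = 0.201). All 7 serine, glycine and folate genes lay above both senescent libraries, with a median of 0.49, and none was called. ASNS had 492.7 against 492.0 and 464.3, just above the higher senescent value. Without hairpin 32-9 in the fit, 8 members were called, beside 17.2% of all genes. AARS, DARS, PHGDH, SHMT2, MTHFD2 and ATF4 were then higher (ATF4 adjusted p = 0.0241), and HARS and PYCR1 lower. With any 1 of the other replicates left out, 0 members and 0% of all genes were called.

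Among the related genes SLC7A11 had 1855.6 with p53 knockdown against 6464.4 and 6008.7 (log2 −1.75, adjusted p = 0.129). XPOT had 3320.2 against 2023.6 and 1960.2 (adjusted p = 0.353), PPP1R15A 3031.4 against 1820.2 and 1892.4 (adjusted p = 0.08), and SESN2, a known p53 target, 398.2 against 358.0 and 376.4 (adjusted p = 0.942). DDIT4 had 96.3 against 37.8 and 58.8 (adjusted p = 0.553), SLC7A5 2136.4 against 1512.9 and 1483.0 (adjusted p = 0.342), and SLC3A2 1553.1 against 2176.2 and 2055.1 (adjusted p = 0.224). EIF2AK4 and ATF3, at 3597.8 and 43.9, lay just below both senescent values. TIE1, the endothelial marker in the table, had 266.9 with p53 knockdown against 40.7 and 37.4, and its part in these values was not tested.

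With BRD7 knockdown, again 1 library, the members had a median log2 change of −0.12 from the senescent libraries. None was called by limma, beside 0.00801% of all genes, which is 1 gene. At an unadjusted p under 0.05 there were 2 members, beside 13.9% of all genes. In 20 of 34 cases (58.8%) the value lay below both senescent libraries, as it did for 45.4% of all genes. HARS had 1388.9 with BRD7 knockdown against 2025.7 and 2222.0 (log2 −0.61, SE 0.10, adjusted p = 0.196). PYCR1 had 593.9 against 887.6 and 892.1 (log2 −0.58, SE 0.22, adjusted p = 0.327). ATF4 had 2274.9 against 1937.0 and 1966.8 (adjusted p = 0.824), and PHGDH, at 251.9, had its lowest value of the 9 libraries (adjusted p = 0.883). SLC7A11 had 6094.0, between the senescent values.

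The knockdowns were also set against each other and against the control. Of the members 0 were called between LncRNA-OIS1 and p53 knockdown, and 0 between LncRNA-OIS1 and BRD7 knockdown, beside 0.00801% of all genes in each. At an unadjusted p under 0.05 limma gave 2 members against p53 knockdown, beside 10.6% of all genes, and 1 against BRD7 knockdown, beside 2.74%. ATF4 averaged 2570 ± 594 (SD, n = 4) over the hairpins of LncRNA-OIS1, against 3523.0 with p53 knockdown (log2 −0.48 for LncRNA-OIS1 minus p53 knockdown, SE 0.26, adjusted p = 0.554). Against the control, LncRNA-OIS1 knockdown libraries had FARSA (log2 0.52), FARSB (0.78) and HARS (0.53) higher and PYCR1 (−1.34) lower, beside 11.2% of all genes called. PHGDH was close to the threshold (log2 −2.39, SE 0.56, adjusted p = 0.0514). This comparison and that of senescent with control cells share the control library, so they are not separate evidence. The count was 22 without hairpin 32-9, where 22.6% of all genes were called, and 2 without 32-8 (7.67%). It was 0 with the senescent library of hairpin 500 (3.2%) or of hairpin 507 (3.18%) left out. Of the related genes, 6 of 10 transporters and 4 of 20 other ATF4 targets fell against the control, beside the 11.2% of all genes called in either direction. Among them were SLC1A4 (log2 −3.50, adjusted p = 0.00671), SLC3A2 (log2 −0.96, adjusted p = 0.03) and JDP2 (log2 −4.04, adjusted p = 0.00581). ADM2, also among them, passed the filter only through the control, so its call is no evidence of a fall. PPP1R15A, at 2550.8, 2158.7, 2160.9 and 2746.1 against 1383.6, rose (log2 0.79, SE 0.16, adjusted p = 0.0372), as did EEF1E1 (log2 1.03). The mitochondrial RARS2 fell (log2 −0.72). Among other enzymes MTHFD2L and GCSH rose (GCSH log2 0.99).

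**Figure D4:**
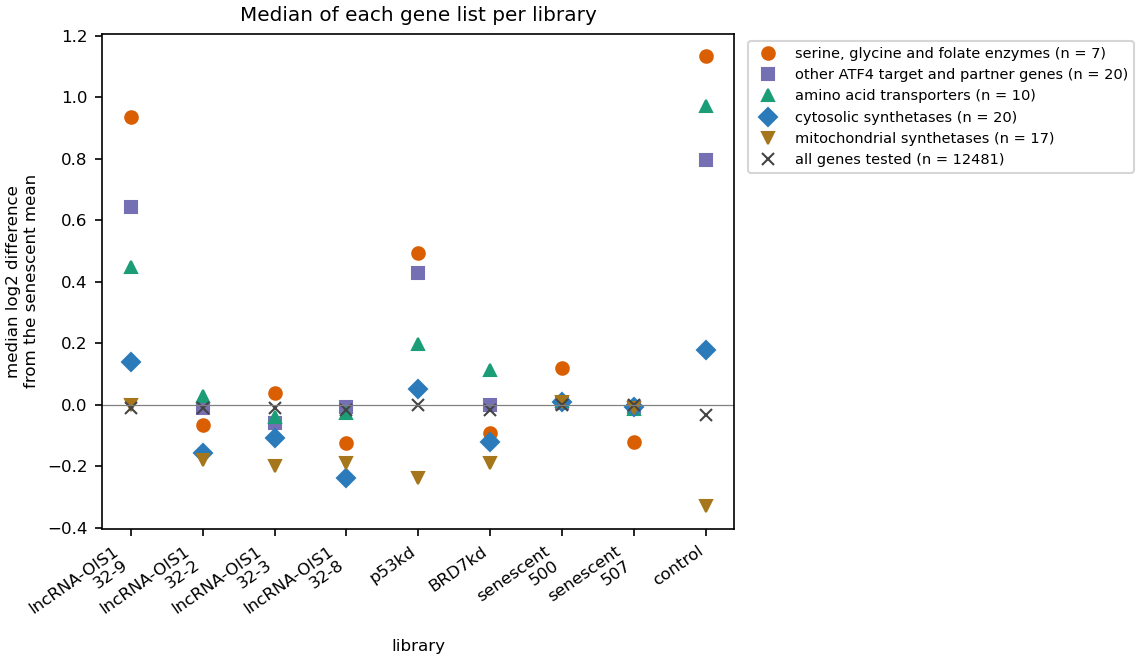
Median over each gene list of log2 of the normalised read count minus the mean log2 of the senescent libraries, per library. The serine, glycine and folate enzymes had medians of 0.94 with hairpin 32-9, 0.49 with p53 knockdown and 1.13 in the control, while those of all genes tested lay between −0.03 and 0.

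The lists differed in how far they stood from the senescent level in the same libraries. With hairpin 32-9 the median log2 difference was 0.94 for the serine, glycine and folate enzymes, 0.64 for the other ATF4 targets, 0.45 for the transporters, 0.14 for the cytosolic synthetases and 0 for the mitochondrial ones. With p53 knockdown these medians were 0.49, 0.43, 0.20, 0.05 and −0.24, and in the control 1.13, 0.80, 0.97, 0.18 and −0.33. The order was nearly the same in these 3 libraries, with the transporters ahead of the other ATF4 targets in the control. They describe the libraries and were not tested between lists.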

How the data were processed

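Per the labels, polyA RNA was purified with Oligotex and made into TruSeq libraries. All 9 came as 1 gene table. Its values are a signal, normalised read counts made and deposited by the authors, with no value under 20 and the same total (14916466.5) in each library. The submitters' processing notes name TopHat2, HTSeq and hg19 without roles or versions. Equal distributions tie a value to the rank of its gene and hide depth, so no counting error is given.

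The 34 genes, the lists of related genes and the tests were chosen with earlier results of these data known. Limma 3.58.1 in R 4.3.3 took log2 of each value as input, with a trend and no pseudocount, for 12481 genes whose highest value was at least 40. All libraries entered 1 fit of 5 groups with 4 residual degrees of freedom. Lone libraries were taken to vary as the replicated groups do. P-values are two-sided and Benjamini-Hochberg adjusted over all genes tested. Simulated data with 200 changed genes were used to test the procedure.

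Named genes are all 34 members, the knocked-down genes, 9 related genes fixed by name and, per related list and comparison, up to 3 called genes in each direction. TIE1, S100A4, LUM, DCN, FAP, KRT19, CD14 and PTPRC were named from the marker lists after their values were seen. STC2 and GDF15 were named in the same way from the list of other ATF4 targets. Some genes that the rule names are not reported here. Hairpin 32-9 was made a group of its own, leaving 3 residual degrees of freedom, after its values had been seen. Each result was refitted after adding 10 or 50 to the values, without the filter or with one on the mean (80), after scaling by median of ratios, without the trend, with only the groups compared, with a block, and with each replicate left out. Promoters came from RefSeq on GRCh38.p14 by symbol. Windows of 30 bases at all 9 matches, and 1 longer stretch, stand in for the 6 whole promoters that the rule allowed.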

Additional observations from a re-analysis of the deposited data

Results flagged for a closer look

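In the 4 libraries with LncRNA-OIS1 knockdown, 9 of the 34 genes had 1 library whose distance to its nearest neighbour took more of the range than Dixon's 95% critical value allows. In 8 of them the library was hairpin 32-9, on the high side. The share of the range was 0.981 for SHMT2, 0.939 for GARS, 0.927 for EPRS, 0.924 for MTHFD2, 0.884 for ATF4, 0.880 for PHGDH, 0.835 for AARS and 0.833 for SARS. The other was DDIT3, low with hairpin 32-3, at 0.837. Of all genes with a range in these libraries, 1272 of 12385 (10.3%) passed the same limit, where chance flags about 1 in 20 groups. How many of the 1272 were high with hairpin 32-9 was not counted, so the 8 have no matching background.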

How the results depend on the processing

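Pseudocounts of 10 and 50, no filter, a mean of at least 80 and median-of-ratios scaling kept every count of called members within 1.5 times. Fitting only the groups compared gave 24 members for senescent against control (40% of all genes called), 11 for p53 knockdown against senescent (27.5%) and 0 for LncRNA-OIS1 knockdown against control (3.16%). Moderation without the trend gave 0 for p53 knockdown against senescent (0.016%). Leaving out 1 replicate at a time gave 0 to 19 for senescent against control, 0 to 8 for p53 knockdown against senescent, 0 to 22 for LncRNA-OIS1 knockdown against control, 4 to 12 for hairpin 32-9 against the other hairpins and 1 to 11 for hairpin 32-9 against senescent. The replicate numbers do not pair the samples (correlations of deviations −0.071 and −0.099). A replicate block, with 2 residual degrees of freedom, gave 0 members for senescent against control (0% of all genes), 0 for p53 knockdown against senescent (0%) and 0 for LncRNA-OIS1 knockdown against control (0.857%). Of 432 log2 changes of called members under the alternatives, 304 kept direction and call, 128 kept direction only and 0 reversed. Changing the filter or trend, fitting only the groups compared, or leaving out a replicate outside the comparison cannot move a log2 change. For these alternatives the lack of reversals was fixed in advance. The cause of the moves in the counts was not tested. Depth is unknown, so no limit of detection can be set.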
